A study of Mus musculus with 20 samples.

Results

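B16 melanoma cells were picked out of 4 single-cell libraries labelled as CD8+ tumour-infiltrating lymphocytes (TILs) by the pigment genes they express. A cell was a member when its UMIs (unique molecular identifiers, each standing for 1 captured RNA) for Mlana, Pmel, Dct and Tyrp1 summed to at least 20. It also had to hold at most 2 UMIs of Cd3d, Cd3e and Cd3g and fewer than 10 of C1qa, C1qb, C1qc and Lyz2. These limits were set against T cells, macrophages and droplets that mix them with tumour cells. Members could still hold a few UMIs of those genes, so some mixed droplets may remain. Of 7398 cells with at least 500 genes and at most 10% mitochondrial UMIs, 1196 met the rule. These cells were chosen by their own RNA, so their pigment genes and their differences from the other cells are given as descriptions, with no test.

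The study transferred OT-I CD8 T cells, which recognise a peptide of ovalbumin, into mice carrying B16-OVA tumours, a mouse melanoma line made to express ovalbumin. The T cells were wild type (WT) or came from Tet2-/- mice crossed with OT-1 mice (Tet2-/-OT-I, here Tet2KO), and the mice were either given anti-PD-L1, an antibody that blocks the PD-L1 checkpoint ligand, or not. Tumour-infiltrating cells were taken 8 days after transfer, 1 library for each of the 4 combinations, on the 10x Chromium 3′ V2 platform. The genotype is thus that of the transferred T cells, and the labels give no genetic change to the melanoma cells beyond ovalbumin. How many mice went into a library, their age and the antibody's dose were not given in the sources used here. The 16 other samples of the series, bulk RNA and open-chromatin profiles of T cells, were not analysed here.

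In the text, the 4 libraries always come in 1 order, called library order: WT untreated, WT anti-PD-L1, Tet2KO untreated and Tet2KO anti-PD-L1. A level is the gene's UMIs per 1000000 UMIs (CPM) over all members of a library. With 1 library per group there is no replicate, so no test between groups was possible. Differences are log2 ratios with exact 95% binomial intervals that cover counting error only, and a gene was called higher or lower when its mean level was at least 50 CPM and it differed by at least 1.5-fold. UMIs come from 3′ ends and were not divided by gene length.

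Melanocytes make pigment in melanosomes, lysosome-related organelles. Tyrosinase (Tyr) starts melanin synthesis, TYRP1 and dopachrome tautomerase (DCT) act on later intermediates, PMEL forms the fibrils on which melanin settles, and MLANA helps PMEL mature. The transcription factors MITF and SOX10 drive these genes. Tumour cells show peptides to CD8 T cells on MHC class I, a heavy chain with beta-2-microglobulin (B2m). Interferon-gamma, which activated T cells release, acts through transcription factors such as IRF1 to raise class I genes and, through the coactivator CIITA, class II genes in cells that otherwise make little of them.

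Promoters of 6 genes on which the results turn are shown as background to these 3 programmes. Each line holds the 250 bases before the RefSeq transcription start (build GRCm38.p6), 5′ to 3′ on the gene's strand, with the motif named for its group in capitals. The pigment genes were searched for CATGTG, letters of the E-box that MITF binds. The window of Dct, chr14:118052247-118052496 on the minus strand, holds it at 2 places, at -150 and, on the other strand as CACATG, at -232 from the start. Tyrp1, chr4:80833963-80834212 on the plus strand, holds it at -46.
Dct: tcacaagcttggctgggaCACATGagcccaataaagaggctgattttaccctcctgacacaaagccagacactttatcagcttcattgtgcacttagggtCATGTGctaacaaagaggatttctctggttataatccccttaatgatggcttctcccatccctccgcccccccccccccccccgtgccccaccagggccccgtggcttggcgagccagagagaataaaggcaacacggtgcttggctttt
Tyrp1: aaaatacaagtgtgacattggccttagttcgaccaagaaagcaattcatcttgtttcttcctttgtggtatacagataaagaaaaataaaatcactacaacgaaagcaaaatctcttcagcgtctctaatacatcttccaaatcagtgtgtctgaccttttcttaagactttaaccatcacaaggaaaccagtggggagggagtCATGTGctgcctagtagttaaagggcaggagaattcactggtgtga
The interferon and class I genes were searched for TTCNNNGAA, the core letters of the gamma-activated site, which read alike on both strands. Igtp, chr11:58199306-58199555 on the plus strand, holds it at -45, and Psmb8, chr17:34197945-34198194 on the plus strand, holds it at -97.
Igtp: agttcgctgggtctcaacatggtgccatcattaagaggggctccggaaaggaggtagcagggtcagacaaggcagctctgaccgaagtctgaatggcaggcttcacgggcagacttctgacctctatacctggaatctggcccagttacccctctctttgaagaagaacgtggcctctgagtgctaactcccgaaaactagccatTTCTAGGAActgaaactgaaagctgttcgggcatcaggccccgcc
Psmb8: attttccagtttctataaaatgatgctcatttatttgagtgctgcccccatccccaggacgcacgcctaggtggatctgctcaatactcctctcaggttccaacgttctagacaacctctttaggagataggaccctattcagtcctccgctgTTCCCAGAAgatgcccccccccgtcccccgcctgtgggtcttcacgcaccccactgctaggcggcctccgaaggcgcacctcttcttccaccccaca
The class II genes were searched for ATTGG, the Y-box letters read by NF-Y. H2-Aa, chr17:34287824-34288073 on the minus strand, holds it at -48. H2-Eb1, chr17:34305617-34305866 on the plus strand, holds it at -59 and, as CCAAT on the other strand, at -35.
H2-Aa: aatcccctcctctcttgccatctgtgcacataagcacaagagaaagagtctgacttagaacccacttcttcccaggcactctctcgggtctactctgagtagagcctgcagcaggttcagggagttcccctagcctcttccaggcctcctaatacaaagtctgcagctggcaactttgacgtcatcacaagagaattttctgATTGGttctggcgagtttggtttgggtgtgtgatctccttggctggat
H2-Eb1: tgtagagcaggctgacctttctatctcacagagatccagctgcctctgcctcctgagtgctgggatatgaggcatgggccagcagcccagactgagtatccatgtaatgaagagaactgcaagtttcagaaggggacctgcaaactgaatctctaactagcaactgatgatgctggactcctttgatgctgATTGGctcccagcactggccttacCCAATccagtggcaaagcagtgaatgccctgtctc
Both strands were searched, the motifs share no place in these windows, and such letters are common. CATGTG stood in 12.3% of the 32851 promoter windows of the table, TTCNNNGAA in 7.02% and ATTGG in 33.8%. Among the listed genes that had an entry, CATGTG stood in 10 of 23 pigment genes. TTCNNNGAA stood in 5 of 23 interferon genes and in 1 of 17 class I genes, Psmb8. ATTGG stood in 4 of 5 class II and 12 of 17 class I genes. A match describes the letters of a window and says nothing of binding in these cells.

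Of the 5 melanoma markers, Gpnmb alone was not used by the rule, and the rule also capped 3 of 11 T cell and 4 of 11 macrophage markers, so these sums partly follow from the choice of cells. Summed over Mlana, Pmel, Dct, Tyrp1 and Gpnmb, members held 17794, 19651, 18560 and 19562 CPM in library order, and the other cells of the same libraries 709, 283, 340 and 115 CPM. Those other cells include 22, 2, 9 and 2 cells that had enough pigment UMIs but failed the T cell or macrophage limits. The 11 T cell markers summed to between 52.9 and 67.2 CPM in members, against 10634 to 13582 CPM in the other cells. Macrophage markers summed to 41.0, 36.3, 66.1 and 60.1 CPM in members, against 4819 to 8640 CPM. B cell markers reached at most 3.91 CPM, fibroblast markers at most 6.94 CPM, and neutrophil and NK cell markers at most 0.653 CPM each. Keratinocyte markers had no UMI in any library. Endothelial markers were higher in members, at 75.1, 74.8, 83.2 and 71.8 CPM against 27.9 to 38.9 CPM, with 3 of 5 genes at 0. Erythroid markers summed to 105, 43.9, 293 and 10.4 CPM in members, against 145 to 563 CPM. Markers of Schwann cells, which share a neural crest origin with melanocytes, summed to 357 to 572 CPM. The dendritic cell set stood at 782, 1866, 2430 and 3198 CPM, carried by Cd74 and H2-Ab1, while 3 or 4 of its 6 genes were at 0.

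Members were 900 of 2297 cells in the WT untreated library (39.2%, exact Clopper-Pearson 95% interval 37.2 to 41.2). They were 68 of 1603 cells (4.24%, 3.31 to 5.35) in WT anti-PD-L1, 180 of 2221 (8.10%, 7.0 to 9.32) in Tet2KO untreated and 48 of 1277 (3.76%, 2.78 to 4.95) in Tet2KO anti-PD-L1. The WT untreated library thus gave most of the members. The libraries are labelled as CD8+ TILs, and any selection for T cells before loading also sets these shares. Members summed to 9942893, 1845424, 2812132 and 1532044 UMIs. Their median UMIs per cell were 10314, 25554, 13462 and 31763, so the libraries with few members held the deeper ones. The other cells were shallower, at 3643, 5463, 4490 and 7312 UMIs, and were also deepest in the 2 anti-PD-L1 libraries. No member barcode occurred in more than 1 library.

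The threshold was not crowded. Median pigment UMIs were 155, 383, 177.5 and 483 per member and 0 per other cell. Only 9 WT untreated and 3 Tet2KO untreated members held 20 to 29 pigment UMIs, and 4 and 1 cells of those libraries lay just outside with 10 to 19. The T cell and macrophage limits left out 22, 2, 9 and 2 cells that had enough pigment UMIs. No other removal of doublets was made.

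Dct led the pigment genes in every library, at 5985, 7139, 4911 and 6095 CPM. Mlana stood at 3274, 4658, 3656 and 4469 CPM, Tyrp1 at 3659, 3196, 4354 and 3900 CPM and Pmel at 2977, 2621, 3863 and 3318 CPM. These genes of the rule stayed within 1.5-fold of each other across every pair of libraries compared. Gpnmb, a glycoprotein of melanosomes and lysosomes that macrophages make too, stood at 1899, 2038, 1776 and 1779 CPM. Tyr, whose product limits melanin synthesis, was far lower at 280, 336, 319 and 373 CPM. The channel Trpm1 was at 360, 453, 518 and 671 CPM and the ion exchanger Slc24a5 at 512, 594, 657 and 659 CPM. The plot of pigment genes, regulators and split genes shows how narrow these ranges were beside those of Gsta4 and Kcnj13.

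**Figure D1:**
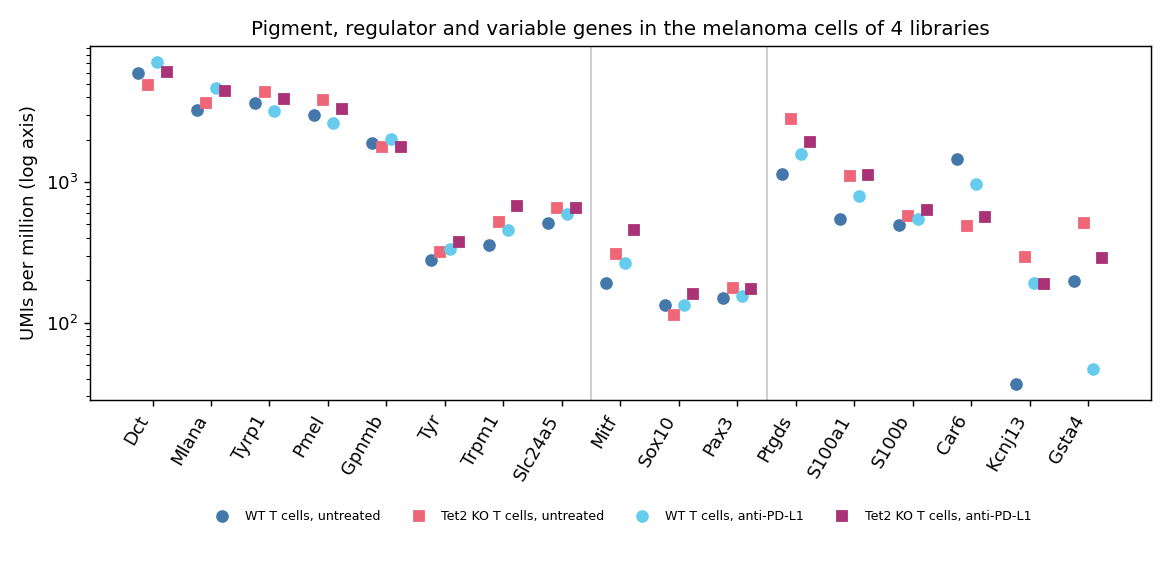
Levels of pigment genes, their regulators and genes of the Ptgds and S100b group in B16 melanoma cells of each library, in CPM on a log axis; 1 point is 1 library. Dct lies between 4911 and 7139 CPM, while Gsta4 runs from 46.6 to 510 CPM.

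Among regulators, Mitf stood at 193, 264, 310 and 459 CPM. Sox10, which acts upstream of Mitf, was nearly flat at 135, 134, 114 and 161 CPM, as was Pax3 at 150, 156, 177 and 175 CPM. Sox9, a related factor tied to less differentiated states, was low throughout, at 7.14, 7.05, 28.1 and 27.4 CPM, below the 50 CPM floor. Axl, a receptor kinase that marks dedifferentiated melanoma, was at 15, 41.2, 65.8 and 92.0 CPM. Ngfr, Ednrb, Egfr and Sox2 had no UMI in any library, which at 3 counts allows at most 0.302, 1.63, 1.07 and 1.96 CPM. Kit had 1 UMI in each untreated library, and Cdkn2a, a cell-cycle brake, 1 UMI in WT untreated and none elsewhere. Pigment RNA was high by the rule that chose the cells, while the receptors Ngfr, Ednrb, Egfr and Kit had few or no UMIs. The 27 listed neural crest and dedifferentiation genes summed to 3411, 3934, 5944 and 5038 CPM in members. In the other cells they summed to 2419 to 3368 CPM.

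Besides pigment genes, the most abundant RNAs were Ftl1 and Fth1, the chains of the iron store ferritin, at 8965 to 13260 and 8367 to 11767 CPM, followed by B2m, Ppia and Eef1a1. The metallothioneins Mt1 (3846, 3533, 2595 and 3108 CPM) and Mt2 (1854, 1414, 1133 and 1098 CPM) were also high. Members stood out from the other cells by genes the rule had not used, given here as a description of the cells it picked. Tinagl1, a matrix protein, was at 893, 845, 804 and 912 CPM in members and 29.1, 8.73, 13.2 and 2.0 CPM in other cells. Rab38, a GTPase of melanosome transport, was at 504, 513, 506 and 587 CPM.

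From cell to cell, members of at least 5000 UMIs (810, 54, 158 and 48 cells) were compared after thinning each to 5000 UMIs. Dct had a median of 29.5, 32, 22 and 28 UMIs, with quartiles of 21 and 40 in WT untreated. Ptgds, the enzyme that makes prostaglandin D2, was far more uneven. Its median was 3, 3.5, 8.5 and 7 UMIs but its highest cell held 56, 94, 136 and 42. S100b, a calcium-binding protein used as a melanoma serum marker, had a median of 2 UMIs in each library. Across cells, Spearman's rho between Dct and Tyrp1 was 0.54, 0.358, 0.458 and 0.353, and between Pmel and Tyrp1 0.521, 0.57, 0.47 and 0.432. Mlana did not go with Dct or Tyrp1: its rho with Dct was -0.215, -0.018, -0.00511 and -0.243, and with Tyrp1 -0.137, 0.0213, -0.143 and -0.274. With Pmel its rho was positive, at 0.238, 0.325, 0.125 and 0.0481. The rule summed these pigment genes to choose the cells, so it also bears on their relations. These are descriptions over cells that share a library, with no p.

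The first comparison set tumours with Tet2KO T cells against tumours with WT T cells, both untreated, and asks how the melanoma cells differ with the genotype of the T cells around them. All 6 class II genes past the floor, 7 of 14 class I genes and 11 of 22 interferon genes were higher in the Tet2KO library, and 8 of 21 G2/M genes were lower. Of 2892 genes past the floor, 155 were higher (5.36%) and 131 lower (4.53%), or 286 in either direction (9.89%). The split depended on scaling: with edgeR's TMM factors 112 were higher and 254 lower, and with DESeq2's size factors 126 and 192, after a shift of the median gene of at most -0.0987 on the log2 scale. The median log2 ratio of all genes was -0.04.

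MHC class II genes led. Of 8 listed, 6 passed the floor and 6 were higher, with a median log2 ratio of 1.26. The list was drawn up after the level of Cd74 had been seen. Cd74, the invariant chain that guides class II molecules to peptide-loading compartments, stood at 670 CPM in WT untreated and 2182 CPM in Tet2KO untreated, a log2 ratio of 1.70 (95% interval 1.65 to 1.75). H2-Aa, an alpha chain, went from 255 to 757 CPM (1.57, 1.49 to 1.65) and the beta chain H2-Eb1 from 126 to 328 CPM (1.38). H2-Ab1 (1.14), H2-DMa (1.09) and H2-DMb1 (0.84), the last 2 being parts of the peptide exchange factor, were higher as well. Ciita itself was at 3.92 and 9.25 CPM, below the floor.

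Cd74 is abundant in macrophages, so its level was set beside their markers. Members held 43.2, 205, 150 and 189 Cd74 UMIs per C1q UMI in library order, against 0.490, 0.963, 1.03 and 1.01 in macrophage-like cells, defined by at least 10 UMIs of the C1q genes and Lyz2. The rule capped the same genes in members, so the gap between these ratios follows in part from how the cells were chosen. At 5000 UMIs, 65.2%, 90.7%, 94.3% and 100% of members held a Cd74 UMI, and without thinning 71.4%, 100%, 98.9% and 100%. In T cells, defined by at least 3 Cd3 UMIs, the unthinned shares were 19.1%, 11%, 10.8% and 12.1% at median depths of 3756, 5445, 4426 and 6807 UMIs. Cd74 in those T cells was at 142, 85.9, 142 and 20.2 CPM. The part of RNA from other cells in the members' Cd74 was not tested.

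Class I genes were higher by less. Of 19 listed, 14 passed the floor of which 7 were higher and none lower, at a list median of 0.55. B2m was at 4377 CPM in WT untreated and 7230 CPM in Tet2KO untreated (0.72), the heavy chain H2-K1 at 488 and 910 CPM (0.90), and H2-D1 at 922 and 1650 CPM (0.84). Psmb8, a catalytic subunit of the immunoproteasome, went from 203 to 421 CPM (1.05), and Psmb9 from 165 to 250 CPM (0.60, but 0.21 after thinning to 5000 UMIs). Tapbp, which holds class I by the peptide transporter, went from 99.3 to 188 CPM (0.92). The transporter subunit Tap1 was at 64.8 and 89.6 CPM, under 1.5-fold.

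**Figure D2:**
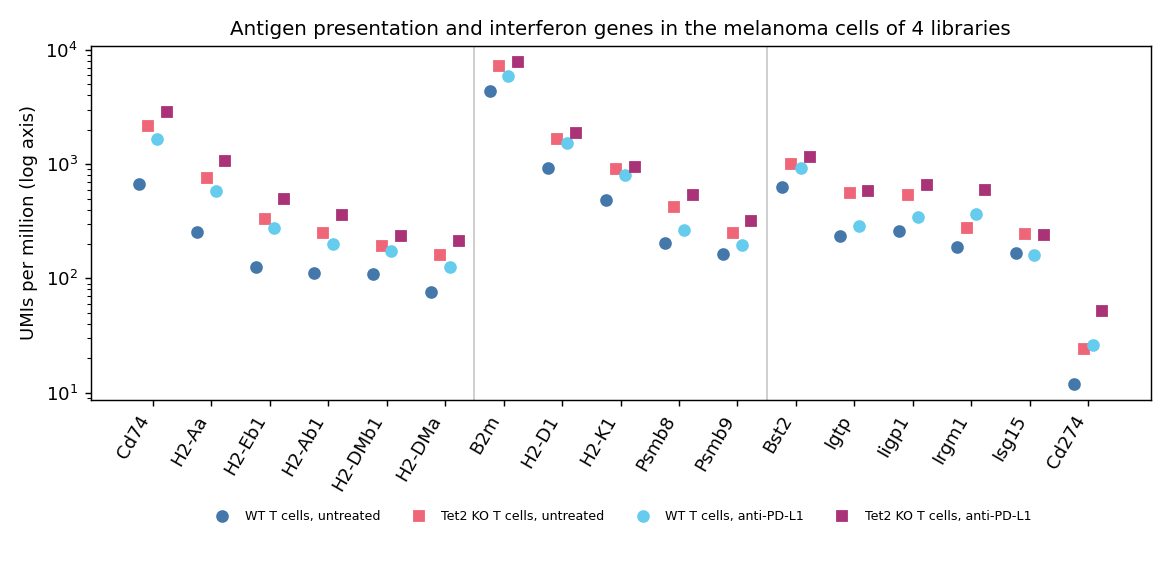
Levels of MHC class II, class I and interferon genes in B16 melanoma cells of each library, in CPM on a log axis; 1 point is 1 library. Cd74 is at 670 CPM in WT untreated and between 1667 and 2841 CPM in the other libraries.

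Interferon genes followed. Of 30 listed, 22 passed the floor, 11 were higher and none lower, and the list median was 0.58. Igtp and Iigp1, GTPases that interferon-gamma induces, went from 237 to 555 CPM (1.23, 1.13 to 1.32) and from 260 to 533 CPM (1.03). Bst2, which tethers budding viruses, went from 632 to 1007 CPM (0.67), Gbp2 from 185 to 331 CPM (0.84, but 0.48 after thinning), and Irf1 from 49.7 to 74.7 CPM (0.59, but 0.49 with TMM factors). The checkpoint ligand Cd274, which encodes PD-L1, was at 12, 26.0, 24.2 and 51.6 CPM in library order, below the floor on average. At 5000 UMIs, 5.43%, 14.8%, 10.8% and 12.5% of members held a Cd274 UMI.

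Some of the 10 largest differences leaned on single cells or were shared with T cells. Ccl5, a chemokine that T cells make, was at 169 and 573 CPM in WT and Tet2KO untreated members (1.76). Its top member held 10.0% and 19.3% of those UMIs, and T cells of the same libraries had 484 and 2159 CPM, so T cell RNA moves with it; its part was not tested. Kcnj13, a potassium channel, went from 36.9 to 294 CPM (2.99), with 15% and 17.7% in 1 cell. Klf4, a transcription factor, went from 8.35 to 39.1 CPM (2.23), and in T cells from 2.68 to 9.95 CPM.

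Some cell-cycle genes were lower in the Tet2KO untreated library. Of 32 G2/M genes 21 passed the floor, of which 8 were lower and none higher, at a list median of -0.52. Cdc20, which activates the anaphase-promoting complex, was at 121 and 45.2 CPM (-1.42, -1.70 to -1.16). Ccnb2, a cyclin of mitosis, was at 122 and 54.1 CPM, and Birc5, the passenger protein survivin, at 336 and 209 CPM (-0.68). Top2a, which untangles chromosomes, was at 177 and 165 CPM and not apart. Of 30 S-phase genes 15 passed the floor, of which 3 were lower and none higher, at a list median of -0.25. G2/M genes were also lower in T cells of these libraries (8 of 21, median -0.47, beside 147 of all 2452 genes) and macrophage-like cells (7 of 7, median -0.97, beside 252 of all 2393 genes).

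Among the remaining groups, 3 of 6 melanocyte regulators past the floor (of 15) were higher and 0 lower. Mitf was at 193 and 310 CPM (0.69, 0.57 to 0.80), the transcription cofactor Cited1 at 71.3 and 146 CPM (1.03), and the receptor kinase Met at 165 and 294 CPM (0.83). Of 16 melanosome genes past the floor (of 25) 2 were higher: Myo5a, the motor that carries melanosomes, at 97.9 and 196 CPM (1.00), and Bace2, a protease that cuts PMEL, at 235 and 421 CPM (0.84). Of 6 neural crest genes past the floor (of 27) 3 were higher, namely Ptgds at 1146 and 2792 CPM (1.28, 1.24 to 1.33), S100a1 at 546 and 1103 CPM (1.02) and Axl at 15 and 65.8 CPM (2.13, 1.82 to 2.46). Car6, a secreted carbonic anhydrase, had the lowest ratio of the named genes, at 1462 and 491 CPM (-1.57, -1.65 to -1.49). Of 20 glycolysis genes past the floor (of 28) 2 were lower, Ldha, which makes lactate, at 3099 and 1593 CPM (-0.96) and Gapdh at 2857 and 1901 CPM (-0.59). None of 38 respiratory-chain genes was higher and 2 were lower, beside 5.36% and 4.53% of all genes.

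The second comparison asked the same of the 2 anti-PD-L1 libraries, which rest on 68 WT and 48 Tet2KO members. Most G2/M and S-phase genes were lower in the Tet2KO library, 5 of 6 class II genes were higher, and 2 of 14 class I genes were. Of the 2892 genes 126 were higher (4.36%) and 212 lower (7.33%), or 338 in either direction (11.7%). Of 21 G2/M genes 19 were lower and none higher, at a list median of -1.05, beside -0.04 for all genes. Of 15 S-phase genes 12 were lower, with a median of -0.83. Cdc20 was at 92.1 and 32.0 CPM in WT and Tet2KO (-1.53, -2.02 to -1.06), Birc5 at 377 and 186 CPM (-1.02), and the proliferation marker Mki67 at 81.8 and 38.5 CPM (-1.09). Rrm2, the ribonucleotide reductase subunit made in S phase, was at 224 and 83.5 CPM (-1.43), and Cdt1, which licenses origins, at 75.3 and 24.8 CPM. T cells of these 2 libraries did not show this: 1 of 21 G2/M genes was higher, 0 lower, and their median was 0.27, beside 0.09 for all genes in T cells.

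Of 6 class II genes 5 were higher, with a median of 0.81. Cd74 was at 1667 and 2841 CPM (0.77, 0.70 to 0.84), H2-Aa at 581 and 1061 CPM (0.87) and H2-Eb1 at 274 and 501 CPM (0.87). That result depended on how cells are weighted: with the mean of per-cell levels, 0 of 6 were higher, the median was 0.26 and Cd74 stood at 0.20. Of 22 interferon genes 5 were higher with a median of 0.37, and 2 of 23 with a median of 0.02 when cells were weighted equally. Igtp was at 286 and 580 CPM (1.02, 0.86 to 1.18) and Iigp1 at 342 and 664 CPM (0.96). Of 14 class I genes 2 were higher, Psmb8 at 267 and 538 CPM (1.01) and Psmb9 at 198 and 320 CPM (0.69), while H2-K1 at 799 and 948 CPM was not apart. With cells weighted equally, 13 of 17 G2/M genes were lower, with a median of -0.68, and 4 of 12 S-phase genes, with a median of -0.46.

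Mitf stood at 264 and 459 CPM (0.80, 0.63 to 0.96), Cited1 at 120 and 193 CPM (0.69), Myo5a at 119 and 210 CPM (0.82) and Axl at 41.2 and 92.0 CPM (1.16, 0.75 to 1.58). With cells weighted equally Axl stood at 0.14, and among members without any Ptprc, Cd3 or C1q UMI Mitf stood at 0.42. Car6 was again lower, at 975 and 564 CPM (-0.79, -0.91 to -0.67). Ptgds was not apart at 1581 and 1914 CPM (0.28). Cdkn1a, the p53 target that inhibits cyclin-dependent kinases, was lower at 197 and 129 CPM (-0.61), but at -0.08 without members that held a Ptprc, Cd3 or C1q UMI. Of 20 glycolysis and hypoxia genes 3 were higher, Pgk1 at 37.4 and 77.7 CPM (1.05), Bnip3, a hypoxia-induced mitophagy receptor, at 221 and 396 CPM, and the hypoxia gene Ndrg1 at 29.3 and 78.3 CPM (1.42). Nr4a3, an early response nuclear receptor, was at 52.6 and 164 CPM (1.65) and Junb at 129 and 273 CPM (1.08).

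The 2 genotype comparisons share no library, so their lists can be set against each other. Among all 2892 genes, 5.36% were higher untreated and 4.36% under anti-PD-L1, and 4.53% and 7.33% were lower. Together, 63 genes were higher in both, which is 40.65% of the untreated list and 50% of the anti-PD-L1 list. Besides the class II genes they include Psmb8, Psmb9, Igtp, Iigp1, Mitf, Cited1, Myo5a, Axl, Hpse and Mgll. Some of these calls depended on settings given above. Under anti-PD-L1, class II genes and Axl fell short of 1.5-fold with cells weighted equally, and Mitf without members holding a Ptprc, Cd3 or C1q UMI. Psmb9 untreated fell short after thinning. With the mean of per-cell levels, 225 of the 286 genes apart untreated and 172 of the 338 under anti-PD-L1 kept their call. Mgll, a lipase of monoglycerides, stood at 217, 240, 400 and 446 CPM in library order. A further 57 genes were lower in both (43.51% and 26.89%), among them Car6, Cdc20, Ccnb1, Plk1, Cdk1, Rrm2 and Tyms. The list also holds nucleolar genes such as Ncl (721, 678, 393 and 377 CPM) and Fbl, and Fabp5, a fatty-acid carrier, at 1368, 1062, 733 and 543 CPM. Cxcl9, Hbb-bs and Ly6a were higher in the untreated and lower in the anti-PD-L1 comparison, and no gene the reverse. A single cell held 61.3% of the Cxcl9 UMIs in WT anti-PD-L1, 58.2% of those of Ly6a there, and 93.4% of the Hbb-bs UMIs in Tet2KO untreated. Without members holding a Ptprc, Cd3 or C1q UMI, Cxcl9 under anti-PD-L1 turned to 1.04.

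The treatment comparison in WT tumours set 68 anti-PD-L1 members against 900 untreated ones. The 6 class II genes and 3 of 14 class I genes were higher, 5 of 20 glycolysis and hypoxia genes were lower, and no G2/M or S-phase gene was apart. Of 2892 genes 89 were higher (3.08%) and 65 lower (2.25%), or 154 in either direction (5.33%). With TMM factors the split turned to 73 higher and 95 lower. All 6 class II genes past the floor were higher, with a median of 0.97: Cd74 at 670 and 1667 CPM (1.32, 1.25 to 1.38), H2-Aa at 255 and 581 CPM (1.19) and H2-Eb1 at 126 and 274 CPM (1.12). Of 14 class I genes 3 were higher, H2-K1 at 488 and 799 CPM (0.71), H2-D1 at 922 and 1521 CPM (0.72) and Tapbp at 99.3 and 161 CPM (0.70). Of 22 interferon genes 4 were higher with a median of 0.29, Irf1, Gbp2, Zbp1 and Irgm1, the last at 188 and 366 CPM (0.96, 0.83 to 1.08).

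None of 21 G2/M genes was apart in WT tumours, with a median of 0.14 that became -0.17 with the mean of per-cell levels, and none of 15 S-phase genes. Of all 2892 genes 5.33% were apart. In the T cells of the same libraries 20 of 21 G2/M genes were lower, with a median of -0.98, beside 547 of all 2452 genes and a median of -0.21. In macrophage-like cells 7 of 7 were lower, beside 286 of all 2393 genes. Of 20 glycolysis and hypoxia genes 5 were lower, including Ldha at 3099 and 1839 CPM (-0.75), Gpi1 at 939 and 619 CPM (-0.60), Bnip3 at 432 and 221 CPM and Ndrg1 at 79.1 and 29.3 CPM (-1.43). Hilpda, a hypoxia-induced lipid droplet protein, was at 125 and 50.4 CPM in members and 74.4 and 297 CPM in T cells. Fos was at 158 and 353 CPM (1.16), Klf4 at 8.35 and 67.2 CPM (3.01), and in macrophage-like cells Klf4 was at 32.0 and 294 CPM. Of 14 early response and heat shock genes past the floor 2 were higher and 3 lower in members, with a median of 0.02. In macrophage-like cells 15 of 19 were higher and 1 lower (median 1.54), where 270 of all 2393 genes were higher. In T cells 8 of 15 were higher and 3 lower (0.96), where 273 of all 2452 genes were higher. Tmsb10, an actin-binding peptide, was at 2026 and 4920 CPM (1.28). Slc7a5, a carrier of large amino acids, was at 94.3 and 204 CPM (1.11).

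In Tet2KO tumours, 48 anti-PD-L1 and 180 untreated members were compared. At the main settings fewer genes were apart than in WT tumours: 53 higher (1.83%) and 70 lower (2.42%), or 123 in either direction (4.25%). With TMM factors these were 71 and 52, and with DESeq2's size factors 70 and 54. The order turned at a floor of 20 CPM, with 388 genes apart against 374 in WT tumours. It also turned without members holding a Ptprc, Cd3 or C1q UMI, with 300 against 213. Of 6 class II genes 1 was higher, H2-Eb1 at 328 and 501 CPM (0.61), with a list median of 0.44, and without the cell that held most of it H2-Eb1 stood at 0.55. Cd74 was at 2182 and 2841 CPM (0.38, 0.32 to 0.44). None of 14 class I genes and 1 of 22 interferon genes was higher, Irgm1 at 277 and 600 CPM (1.12, 0.98 to 1.26). Irgm1 was also higher in macrophage-like cells, at 90.6 and 206 CPM. Of 15 S-phase genes 8 were lower with a median of -0.59, among them Mcm2 at 80.4 and 35.9 CPM and Rrm2 at 151 and 83.5 CPM (-0.85).

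In the Tet2KO treatment comparison 2 of 21 G2/M genes were lower with a median of -0.39, and 17 of 17 with a median of -1.33 among members without any Ptprc, Cd3 or C1q UMI. That subset holds 25 Tet2KO anti-PD-L1 cells. Cdkn1a was at 283 and 129 CPM (-1.13). Gapdh was higher at 1901 and 3228 CPM (0.76). Whether treatment acts differently in the 2 genotypes was not tested, since each arm has 1 library.

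The 2 treatment comparisons share no library either. Among all 2892 genes, 3.08% were higher with treatment in WT and 1.83% in Tet2KO tumours, and 2.25% and 2.42% were lower. As many as 25 genes were higher in both (28.09% of the WT list and 47.17% of the Tet2KO list), including Klf4, Fos, Irgm1, Slc7a5 and H2-Eb1. In Tet2KO tumours H2-Eb1 fell short of 1.5-fold without the cell that held most of it. The higher lists also hold ribosomal genes, 6 in WT and 11 in Tet2KO tumours. Another 8 were lower in both (12.31% and 11.43%), among them Enpp2, which makes lysophosphatidic acid, and the transcription regulator Prdm16, at 88.6, 48.2, 77.9 and 35.9 CPM. Cxcl9, Ly6a and Kcnj13 were higher with treatment in WT and lower in Tet2KO tumours, and no gene the reverse. The plot of list medians sets the 4 comparisons beside the same lists in T cells and macrophage-like cells.

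**Figure D3:**
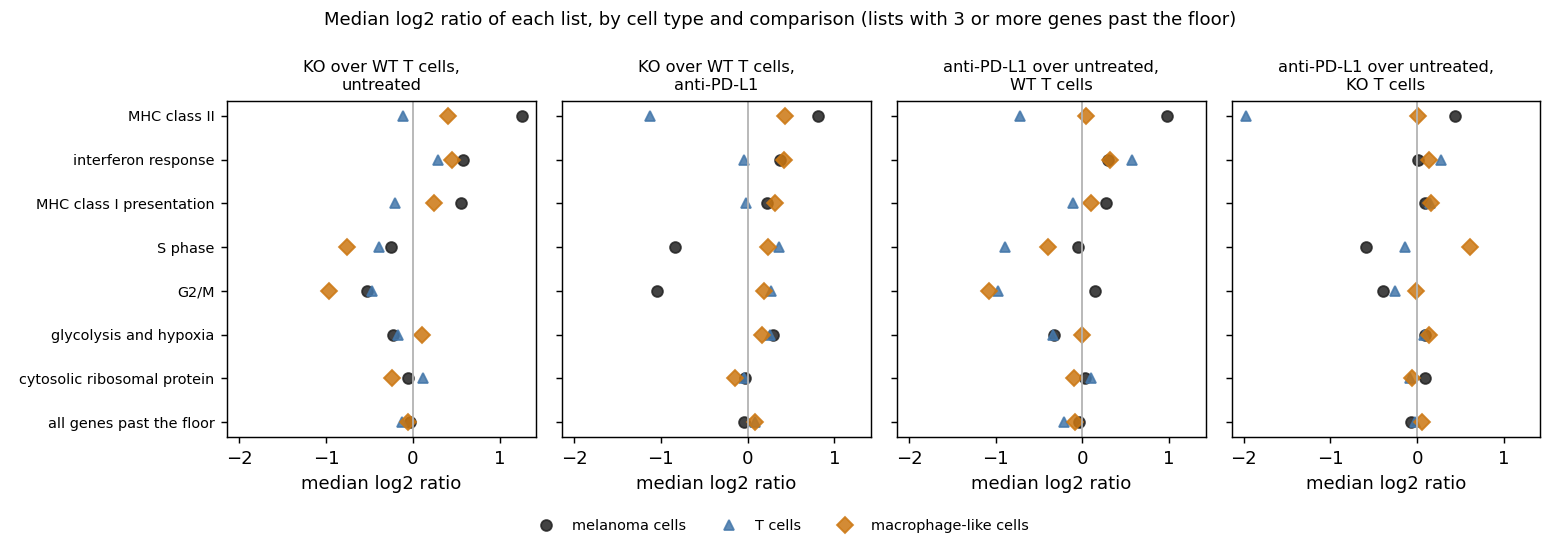
Median log2 ratio (x axis) of 7 gene lists and of all genes past 50 CPM in B16 melanoma cells, T cells and macrophage-like cells, 1 panel for each of the 4 comparisons. The G2/M median of melanoma cells is -1.05 for Tet2KO over WT under anti-PD-L1, where that of T cells is 0.27.

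Some differences recurred in every cell type and are reported as such. Rps29, a short ribosomal protein gene, was at 2314, 4496, 1084 and 2455 CPM in members, 3703, 6479, 1882 and 3648 CPM in T cells and 4032, 6192, 1573 and 2947 CPM in macrophage-like cells. Rps28 was at 990, 1956, 550 and 1396 CPM in members and 1953, 3723, 1071 and 2463 CPM in T cells. Atp5k, a small subunit of ATP synthase, was at 284, 389, 126 and 274 CPM in members and 316, 362, 134 and 259 CPM in T cells. Both kinds of cell had the highest level in WT anti-PD-L1 and the lowest in Tet2KO untreated, so these genes move with the library in all cells. Of 75 ribosomal genes past the floor 4 were lower in the untreated genotype comparison, beside 131 of all 2892 genes (4.53%). With anti-PD-L1, 6 were higher in WT and 11 in Tet2KO, beside 89 (3.08%) and 53 (1.83%) of all genes. With Tet2KO T cells, 9 of 25 interferon genes were higher in untreated macrophage-like cells (median 0.46), where 275 of all 2393 genes were, and 7 of 25 under anti-PD-L1 (0.42), where 135 were. In T cells these were 4 of 10, where 170 of all 2452 genes were higher, and 0 of 10, where 9 were. Of 7 class II genes 2 were higher in untreated macrophage-like cells, with a median of 0.41.

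Summing each list in every member of at least 5000 UMIs, thinned to that depth, showed how it was spread over cells. Shallower members, 90, 14, 22 and 0 in library order, were left out, and the part of this uneven loss was not tested. MHC class II genes had a median of 4, 9.5, 16 and 20.5 UMIs per member, and 165 of 810, 4 of 54, 2 of 158 and 0 of 48 members held none, the last of which allows a share of up to 6.25%. Class I genes had a median of 39, 43, 54 and 61.5 UMIs, and interferon genes 23, 26.5, 33 and 35. Library order is also the order of these medians, with Tet2KO anti-PD-L1 highest. G2/M genes had a median of 10, 15, 4 and 2 UMIs. At least 10 G2/M UMIs were held by 52.0% (exact interval 48.5 to 55.5), 57.4% (43.2 to 70.8), 32.9% (25.7 to 40.8) and 22.9% (12 to 37.3) of members, a range of UMIs and not a cell-cycle phase. The 25 melanosome genes hardly moved, with medians of 41, 42.5, 44 and 46 UMIs.

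**Figure D4:**
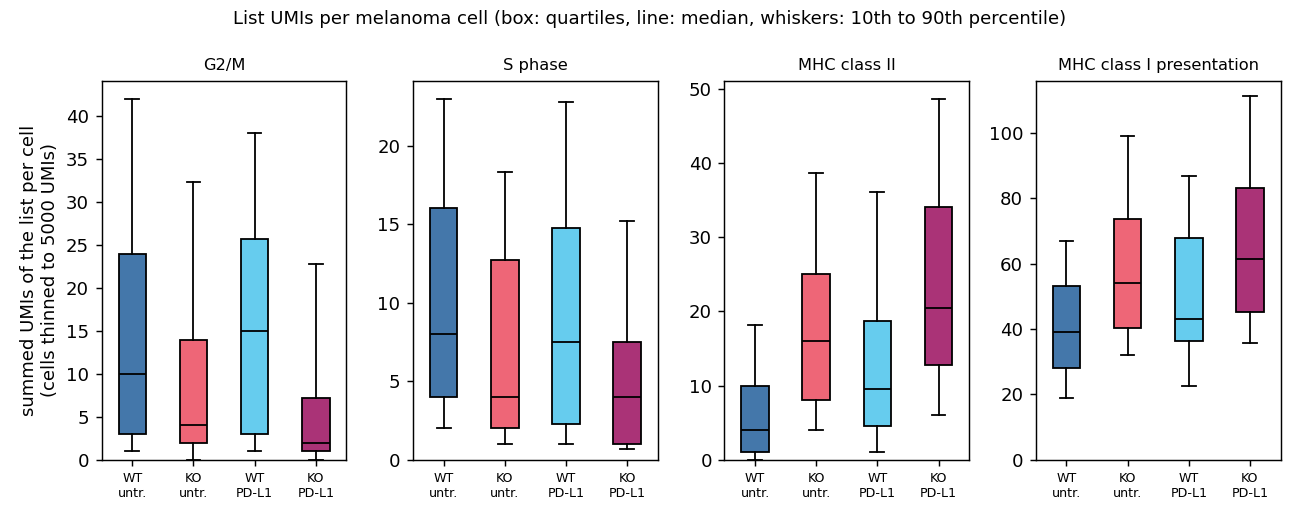
UMIs of each gene list per B16 melanoma cell after thinning to 5000 UMIs, by library (810, 54, 158 and 48 cells); each box spans the quartiles, its line is the median and the whiskers reach the 10th and 90th percentiles. The class II medians are 4, 9.5, 16 and 20.5 UMIs and the G2/M medians 10, 15, 4 and 2.

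Within libraries, members rich in class I RNA were also rich in class II RNA, with Spearman's rho of 0.639, 0.676, 0.553 and 0.792. Cd74 went with B2m at 0.459, 0.664, 0.527 and 0.685. Class I genes went with melanosome genes as well, at 0.499, 0.585, 0.614 and 0.636, and G2/M genes with S-phase genes at 0.495, 0.542, 0.681 and 0.736. G2/M and class I genes ran the other way, at -0.175, -0.49, -0.316 and -0.168.

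Members were next split within each library at its median of Dct, Ptgds or S100b, on cells thinned to 5000 UMIs. A gene was called when its mean was at least 100 CPM and it differed by at least 1.5-fold in 1 direction in all 4 libraries. Cells of 1 library are not replicates, and the gene that made the split is left out. By Dct, 5 of 1548 genes were higher (0.323%) and none lower (0%), namely Gsta4, Enpp2, Ero1l, Kcnj13 and Isg15. The median log2 ratio of Isg15 turned to -0.20 with thinning to 2500 UMIs. The list depended on the settings: the 1-hyphen listing called none of the 5 but Psap as higher and Cxcl10 as lower, the run without thinning kept only Enpp2, and a split between the ends of the range (25% of cells each) only Isg15. Gsta4, a glutathione transferase, was at 410 CPM above and 77 CPM at or below the median in WT untreated, and at 1017 and 293 CPM in Tet2KO untreated. Enpp2 was at 192 and 68 CPM in WT untreated and 200 and 32 CPM in Tet2KO anti-PD-L1. In single libraries, 2.26%, 20.9%, 10.3% and 24.4% of genes were apart in either direction, with the larger shares in the libraries of fewer cells.

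By Ptgds, 13 of 1547 genes were higher (0.84%) and 1 lower (0.0646%). S100a1, a relative of S100b, was at 840 above and 388 CPM below in WT untreated, 1193 and 496 in WT anti-PD-L1, 1686 and 663 in Tet2KO untreated, and 1417 and 867 in Tet2KO anti-PD-L1. In single libraries, 2.39%, 22.6%, 17.1% and 22.9% of genes were apart in either direction. Kcnj13 was at 89 and 12 CPM in WT untreated and 425 and 220 CPM in Tet2KO untreated. Cited1, Gsta4, Enpp2, Mgll, Gjb2 and Pmel were among the others. Car6 was the gene that was lower, at 995 and 1502 CPM in WT untreated, 607 and 1111 in WT anti-PD-L1, 213 and 567 in Tet2KO untreated, and 300 and 775 in Tet2KO anti-PD-L1. Ptgds-rich cells thus had more S100a1 and less Car6 in every library, as the Tet2KO untreated members had relative to WT untreated ones.

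By sign alone, the 6 class II genes past the floor were higher above the Ptgds median in all 4 libraries, as were 271 of all 1547 genes, with list medians of 0.49, 0.68, 0.71 and 0.58, beside 0.03, 0, 0 and 0.05 for all genes. None of the 6 reached 1.5-fold in all 4. By sign alone, 61 of 73 ribosomal genes were lower in all 4 libraries, as were 217 of all 1547 genes, with list medians of -0.27, -0.19, -0.31 and -0.22. The median depth before thinning was lower on the Ptgds-rich side in all 4 libraries, at 10166 against 11830 UMIs in WT untreated, 26891 against 30656 in WT anti-PD-L1, 12684 against 19000 in Tet2KO untreated and 31312 against 33662 in Tet2KO anti-PD-L1. Its part in these differences was not tested.

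By S100b, 7 of 1545 genes were higher (0.453%) and 2 lower (0.129%). Ptgds was at 1946 CPM above and 795 CPM below in WT untreated, 2816 and 814 in WT anti-PD-L1, 5074 and 1463 in Tet2KO untreated, and 2536 and 1300 in Tet2KO anti-PD-L1. In single libraries, 2.72%, 25.6%, 15% and 25.7% were apart in either direction. The others were Gsta4, Enpp2, Mgll, Rnf13, S100a13 and S100a1. Lower were Top2a, at 107 and 178 CPM in WT untreated and 27 and 115 CPM in Tet2KO anti-PD-L1, and 2810417H13Rik. Of 10 G2/M genes past the floor 1 was called and, by sign alone, 7 were lower in all 4 libraries, with list medians of -0.61, -0.61, -0.76 and -0.71. Of 4 S-phase genes none was called and 4 were lower by sign, where 266 of all 1545 genes were. Enpp2 and Gsta4 were called in all 3 splits at these settings, but neither was called by Dct with the 1-hyphen listing or by S100b with thinning to 2500 UMIs. The plot of split genes gives their values.

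**Figure D5:**
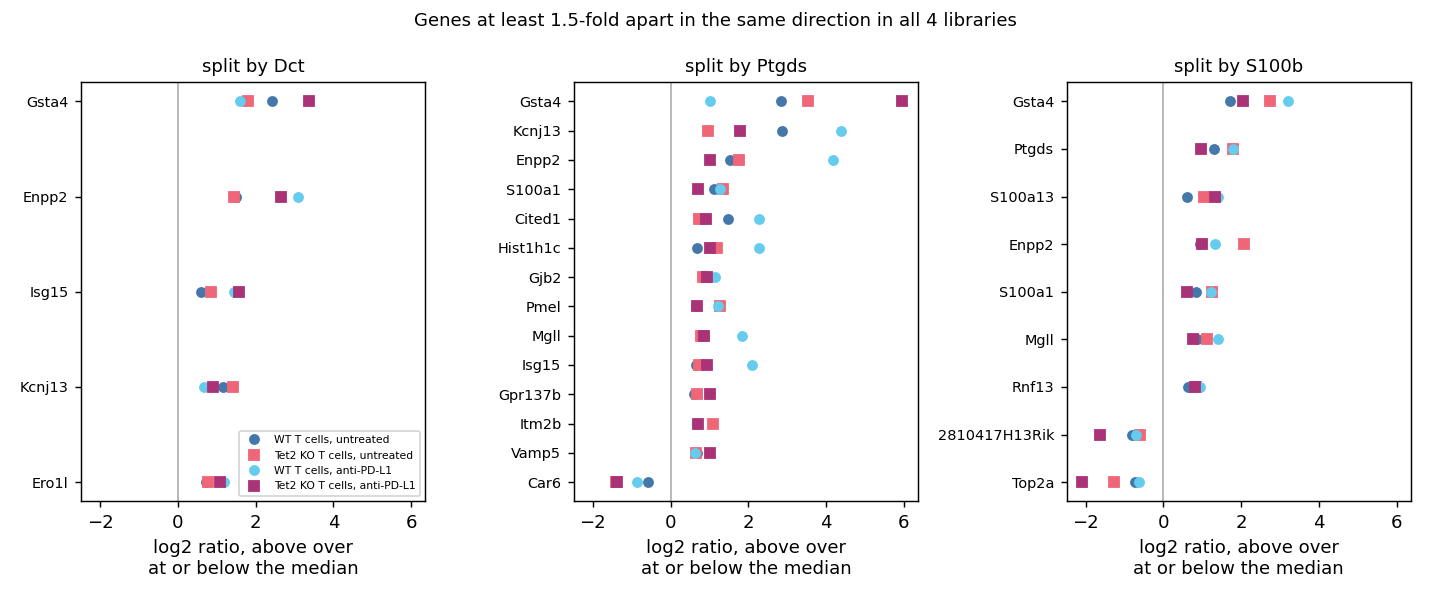
Log2 ratio (x axis) of the level above the library's median over that at or below it, for the genes called in the splits by Dct, Ptgds and S100b; 1 point is 1 library. Car6 lies below 0 by Ptgds in all 4 libraries, as in WT untreated with 995 against 1502 CPM.

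The 3 genes overlapped as markers of cells. Of Ptgds-rich members 56%, 51.9%, 68.4% and 54.2% were also above the S100b median, against 30%, 40.7%, 27.8% and 37.5% of the rest. Spearman's rho between Ptgds and S100b was 0.357, 0.419, 0.606 and 0.244. Dct went with Ptgds at 0.358, 0.0966, 0.445 and 0.298, and with S100b at 0.238, -0.0115, 0.244 and -0.137. Ptgds and S100b thus ran together in every library, while rho between Dct and S100b was near or below 0 in the anti-PD-L1 libraries. Above the Dct median, 49.9%, 51.9%, 58.3% and 30.4% of members were above the S100b median, against 34.8%, 40.7%, 39.5% and 60% of the rest, so that WT anti-PD-L1 gave the same shares for Dct as for Ptgds.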

How the data were processed

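Each library was deposited as tables of UMI counts, whole numbers per cell and gene, made by the authors with a tool that is not given in the sources used here. Submitters' processing notes name the mm10 build, Trim Galore 0.5.0, HISAT2, Bowtie2, HTSeq and bedtools for the series, without saying which touched these tables. Each table lists nearly every cell in 2 listings, told apart by 1 or 2 hyphens in the barcode, and the 2-hyphen listing over 28029 genes was used.

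Members were the cells of at least 500 genes and at most 10% mitochondrial UMIs that met the pigment, Cd3 and macrophage limits. Doublets were not removed beyond those limits. Levels in CPM are a gene's counts summed over the members of a library per 1000000 of their summed counts. Log2 ratios carry exact conditional 95% binomial intervals, and no p-value was computed because each group has 1 library. UMIs of 1 cell are not independent of each other, so intervals cover counting error only. Floors were 50 CPM between libraries and 100 CPM in splits, with 1.5-fold as the size and 5000 UMIs as the thinning depth. T cells and macrophage-like cells were taken from the same libraries by Cd3, C1q and Lyz2 UMIs. Named genes were the rule genes, Gpnmb, Ptgds and S100b, members of the fixed lists, the 25 genes of highest level, and the 15 most above the other cells. To these come, per comparison, the 10 higher and 10 lower genes of largest ratio whose interval excludes equality and of whose UMIs no single cell holds over 25%, the genes apart in both genotype or both treatment comparisons, and the called genes of the splits. The members, lists and rules were chosen with earlier results of these data known, and the class II list was added after the level of Cd74 was seen.

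Scripts ran in Python 3.11.15 with numpy 2.4.6, scipy 1.17.1, pandas 2.3.3 and matplotlib 3.10.9. Scaling factors of edgeR 4.0.16 (TMM) and DESeq2 1.42.0 were tried as alternatives to totals, as were other floors, folds, thinning depths, cell weights, pigment minimums and member sets. The scripts were tested on simulated data. Promoter windows came from the RefSeq table of GRCm38.p6.
Some genes are not reported here.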

Additional observations from a re-analysis of the deposited data

Results flagged for a closer look

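A set of 4 genes pointed opposite ways across the design: higher in 1 comparison and lower in its counterpart by at least 1.5-fold. In each case the difference was not tested, since every arm is 1 library. Cxcl9, a chemokine that interferon-gamma induces, stood at 23.6, 101, 160 and 62.0 CPM in library order. Its log2 ratio for Tet2KO over WT T cells was 2.76 untreated and -0.70 under anti-PD-L1, and the latter turned to 1.04 without members holding a Ptprc, Cd3 or C1q UMI. For anti-PD-L1 over untreated the ratio was 2.09 in WT and -1.36 in Tet2KO tumours. A single member held 61.3% of the Cxcl9 UMIs in WT anti-PD-L1 and 45.3% in Tet2KO anti-PD-L1.

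Ly6a, a surface protein of lymphocytes that interferons also induce, stood at 18, 85.6, 83.9 and 43.1 CPM. Its genotype ratios were 2.22 and -0.99 and its treatment ratios 2.25 and -0.96, with 58.2% of the WT anti-PD-L1 UMIs in 1 member. Hbb-bs, a haemoglobin chain of red cells, had genotype ratios of 1.56 and -2.16, and 1 member held 93.4% of its UMIs in Tet2KO untreated. Kcnj13 had treatment ratios of 2.39 in WT and -0.65 in Tet2KO tumours, with 33.4% of its WT anti-PD-L1 UMIs in 1 member.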

How the results depend on the processing

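No paired analysis was possible because each group holds 1 library. With at least 1000 genes per cell, members were 41.8% of the WT untreated library, and with at most 5% mitochondrial UMIs they were 34.5%, 3.09%, 4.56% and 1.72% in library order. The counts of genes apart (286 and 338 by genotype untreated and under anti-PD-L1, 154 and 123 by treatment in WT and Tet2KO) moved with the floor, the fold and the depth of cells. They were 611, 840, 374 and 388 at a floor of 20 CPM, 137, 139, 76 and 52 at 100 CPM, and 61, 58, 24 and 22 at 2-fold. With members thinned to 5000 UMIs, an alternative chosen after seeing the data, they were 439, 663, 466 and 426. Without members holding any Ptprc, Cd3 or C1q UMI, which leaves 643, 41, 113 and 25 cells, 574 genes were apart by genotype under anti-PD-L1 and 300 by treatment in Tet2KO tumours. With the mean of per-cell levels, 330 were apart by treatment in WT tumours. For other settings these counts stayed within 1.5 times. Splits gave 5, 14 and 9 genes for Dct, Ptgds and S100b. Without thinning they gave 3, 9 and 25, between the ends of the range (25% of cells each) 17, 50 and 83, and at 2-fold 2, 2 and 1. Thinning to 2500 UMIs gave 2 for Dct. A floor of 50 CPM gave 9 for Dct and 14 for S100b, and the 1-hyphen listing gave 2 and 17. The genes changed too: of the 5 called by Dct, the 1-hyphen listing called none, the run without thinning only Enpp2, and the 25% split only Isg15. Thinning to 2500 UMIs called neither Enpp2 nor Gsta4 by S100b. The cause of these moves was not tested. Of the values of named genes, 3 turned direction: Cxcl9 by genotype under anti-PD-L1 (1.04) and Gsta4 by treatment in Tet2KO tumours (0.014), both without members holding a Ptprc, Cd3 or C1q UMI, and Isg15 by Dct level (-0.20, 2500 UMIs). In the untreated genotype comparison, 6 of 6 class II genes were higher under every scaling and member set run, with medians from 1.15 to 1.35. In WT tumours, 4 of 6 were higher with treatment after thinning or without members holding those immune UMIs. The anti-PD-L1 libraries hold the fewest members, 68 and 48.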

Other observations

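Of 14 early response and heat shock genes past the floor, 4 were higher and 1 lower in Tet2KO over WT untreated members, where 9.89% of all genes were apart in either direction. In macrophage-like cells 13 of 19 genes of that list were higher, with a median of 0.92, where 275 of 2393 genes were, and in T cells 7 of 15, where 170 of 2452 were. Dusp1, a phosphatase that ends MAP kinase signals, stood at 56.2, 102, 130 and 149 CPM in library order, Jund at 153, 206, 265 and 304 CPM, and the chaperone Hspd1 was lower, at 1076, 765, 686 and 530 CPM. Dusp1 and Jund were far higher in the other cells of each library (141, 419, 428 and 369 CPM, and 349 to 1041 CPM), and the part of RNA from those cells was not tested. Ddit3, the stress factor CHOP, was at 281, 307, 466 and 363 CPM (log2 ratio 0.73 untreated), while the chaperone Hspa5 was at 478, 420, 466 and 394 CPM. Of 9 p53 genes past the floor 2 were higher, beside 5.36% of all genes, namely Ccng1 and Phlda3, the latter at 156, 223, 305 and 277 CPM (0.97). None of 19 lysosomal genes was apart by genotype untreated or under anti-PD-L1, beside 9.89% and 11.7% of all genes, with Lamp1 at 373, 412, 419 and 443 CPM. Of 8 matrix genes past the floor, 1 was higher and 1 lower by genotype untreated, and none was apart by genotype under anti-PD-L1, beside the same shares. The collagen-binding protein Sparc stood at 339, 311, 396 and 355 CPM. Cxcl10, a chemokine that draws T cells, was at 526, 605, 755 and 465 CPM and lower with treatment in Tet2KO tumours (-0.70).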
